A study of Mus musculus with 3 samples.

Results

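Csf1r, Il34, Csf2rb and F13a1 were examined as 4 of the 21107 gene names on a mouse comparative genomic hybridisation array, a glass slide of short DNA probes on which the amount of DNA at each place in the genome is read as the ratio of 2 dyes. The probes that carried one of these names numbered 29 of 170305. Of these, 2 belonged to Csf1r, 7 to Il34, 3 to Csf2rb and 17 to F13a1. Each gene was set beside the other probes lying up to 500 kb from it on either side, its window, which held 93 probes for Csf1r, 97 for Il34, 95 for Csf2rb and 74 for F13a1. Only the gene's name and its position chose the probes.

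The series measured DNA copy number in mouse gliomas that had become resistant to inhibition of CSF1R. All samples formed 1 group of 3 neurosphere lines, free-floating tumour cell cultures, each grown from a resistant tumour and kept for no more than 3 passages. DNA of each line (Cy5) was hybridised together with DNA of mouse liver (Cy3), so every value is a level in line DNA relative to liver DNA on the same array. Line 1 came from an animal number of its own, while lines 2 and 3 shared a second animal number and the same liver label. The strain, age and tumour genotype of the animals and the inhibitor given are not given in the labels, and no line from an untreated or sensitive tumour was among the samples. DNA holds no expression of marker genes, so the labelled cell types could not be checked against markers.

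Csf1r encodes the receptor tyrosine kinase for the cytokines CSF1 and IL34, and macrophages and microglia, the resident phagocytes of the brain, depend on its signal to survive. Il34 encodes the second of these ligands, made by neurons in the brain and by keratinocytes in the skin. Csf2rb encodes the beta chain shared by the receptors for GM-CSF, interleukin 3 and interleukin 5, which passes their signal to JAK2 and STAT5. F13a1 encodes the A subunit of coagulation factor XIII, the transglutaminase that cross-links fibrin, and it is also made by macrophages.

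A value of 0 stands for the autosomal median of an array. On the log2 scale, 3 copies against 2 in every cell would give 0.585, and 1 copy against 2 would give -1. The spread of a single probe, estimated from the differences between neighbouring probes, was 0.384 (log2) on array 1. It was 0.232 and 0.237 on arrays 2 and 3. Liver DNA was well above background at 96.4%, 98.6% and 99.1% of probes on arrays 1, 2 and 3. The scanner software's own error for the 29 probes had a median of 0.222, 0.216 and 0.215 (log2) on arrays 1, 2 and 3. With all 3 arrays on 1 slide and the line always in Cy5, an effect of dye cannot be told apart from a difference between line and liver. Such an effect is common to the 3 arrays, so agreement between the arrays does not bear on it.

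Some probes of Il34, Csf2rb and F13a1 are shown so that the position and base content behind their values can be seen. They are the highest and the lowest of Il34, all 3 of Csf2rb, and the 3 lowest and the highest of F13a1 by mean ratio. The sequences of the Csf1r probes are not shown. Letters are as the files give them, coordinates are mm9, the strand is not given in the files, and capitals mark the first longest stretch made only of A and T.
Il34 highest, chr8:113292824-113292883: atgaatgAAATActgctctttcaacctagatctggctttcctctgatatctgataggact
Il34 lowest, chr8:113276946-113277005: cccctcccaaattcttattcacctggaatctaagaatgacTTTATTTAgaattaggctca
Csf2rb first, chr15:78158137-78158192: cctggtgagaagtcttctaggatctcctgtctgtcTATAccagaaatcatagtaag
Csf2rb middle, chr15:78164302-78164361: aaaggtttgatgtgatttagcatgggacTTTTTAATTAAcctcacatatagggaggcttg
Csf2rb last, chr15:78174245-78174304: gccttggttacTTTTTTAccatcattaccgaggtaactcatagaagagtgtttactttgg
F13a1 lowest, chr13:37011529-37011588: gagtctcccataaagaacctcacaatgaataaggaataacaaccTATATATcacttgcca
F13a1 next lowest, chr13:37111297-37111356: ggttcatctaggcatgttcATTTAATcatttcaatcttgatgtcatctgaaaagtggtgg
F13a1 lowest but 2, chr13:37098744-37098803: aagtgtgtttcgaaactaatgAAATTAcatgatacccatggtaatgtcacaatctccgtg
F13a1 highest, chr13:37035504-37035563: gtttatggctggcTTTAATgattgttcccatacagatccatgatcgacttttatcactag
The A/T stretch was 5 bases in the highest and 8 in the lowest Il34 probe, and 4, 11 and 7 bases in the first, middle and last Csf2rb probes. Over all 170305 probes, the length of this stretch and the mean ratio had a Spearman correlation of -0.021, and GC percent and the mean ratio one of 0.026. These are descriptions across probes, which are not independent replicates. Exon, intron and untranslated region annotation of mm9 was not used here. Every distance given to or between genes is therefore the gap between their nearest probes.

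Csf1r, the receptor, read lower in the lines than its surroundings did. Its 2 probes lie on chromosome 18 between 61270472 and 61285640 (mm9). Their mean ratio (log2) was -0.61, -0.38 and -0.51 in lines 1, 2 and 3, against window means of 0.036, 0.12 and 0.057. In each line the gene's value lay below that of its window, by 0.65, 0.49 and 0.56 in lines 1, 2 and 3. The difference between own probes and window averaged -0.57 ± 0.077 (SD, n = 3; limma adjusted p = 0.0197). Of the 4 genes, Csf1r alone differed from its window past the threshold of 0.05, and 22.1% of all genes did so (10.6% above, 11.5% below). Its own mean against 0, -0.50 ± 0.12, also passed (adjusted p = 0.0157), as did 22.6% of genes (13.6% above, 8.94% below), and it was -0.29 under normexp background correction. Among all genes, 2.62% lay at least 0.3 below their window in all 3 lines, as Csf1r did.

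**Figure D1:**
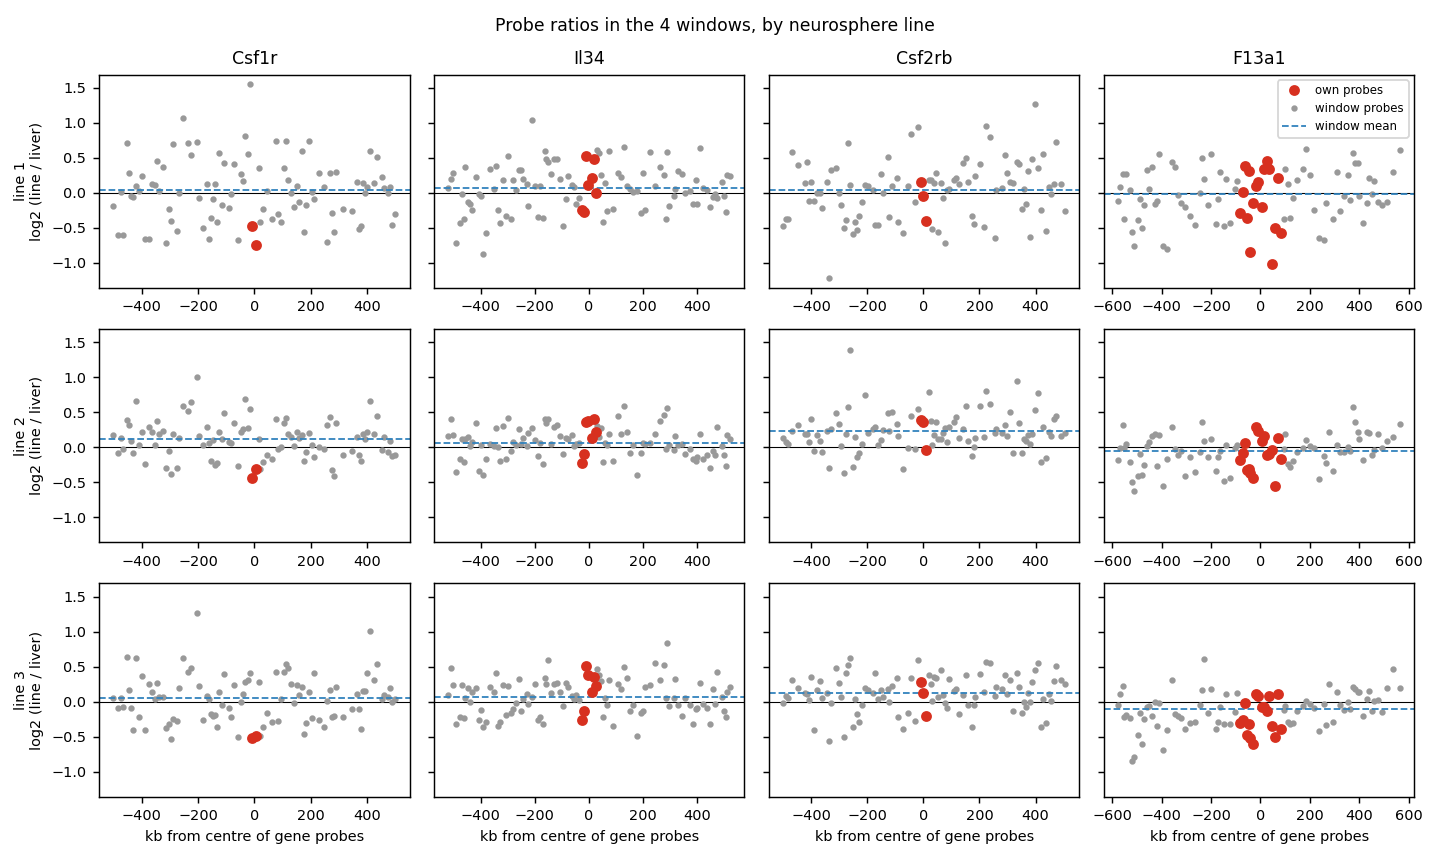
Centred log2 ratio of line DNA over liver DNA (vertical axis) of each own probe (red) and each window probe (grey) against distance in kb from the centre of the gene's probes, with a panel for each gene and line and a dashed line at the window mean. Both Csf1r probes sit below 0 in every line, while own probes of the other 3 genes lie on both sides of 0.

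The 2 Csf1r probes were read one by one. The probe at 61270472 had ratios (log2) of -0.48, -0.45 and -0.52 in lines 1, 2 and 3. Of the 93 window probes, 13 were lower than it in line 1, 0 in line 2 and 1 in line 3. The probe at 61285581 had -0.75, -0.31 and -0.49. Here 0 window probes were lower in line 1, 3 in line 2 and 2 in line 3. Both probes were thus low in all 3 lines, and the second varied more between lines than the first. Each passed against 0 (limma adjusted p = 0.00960 and 0.0124), as did 33.5% of all probes (16.1% above, 17.4% below). Both being at or below -0.3 in every line was seen in 0.551% of all pairs of neighbouring probes and in 6.07% of single probes.

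The low ratio of Csf1r stood between high and low neighbours. The nearest probe before the gene, 5.99 kb away and unnamed, had ratios (log2) of 1.55, 0.54 and 0.40 in lines 1, 2 and 3. The nearest probe after it, 7.50 kb away in Hmgxb3, had 0.35, 0.12 and 0.28. Both neighbours were above 0 in every line, on the other side from Csf1r. The next probe, 14.2 kb after the gene and also in Hmgxb3, was again below 0, at -0.42, -0.31 and -0.49. The 3 nearest probes before Csf1r were above 0 in every line, and of the 3 nearest after it 1 was above and 2 were below. Pdgfrb, which encodes a platelet-derived growth factor receptor and lies 30.8 kb before Csf1r, had 4 probes averaging 0.042, 0.14 and -0.040, and its difference from its window was -0.014 (limma adjusted p = 0.846). Hmgxb3, with 4 probes, averaged -0.071, -0.13 and -0.18, a difference of -0.19 (adjusted p = 0.0542). Of the 23 other named genes in the Csf1r window, 0 had a lower mean than Csf1r, and 5 passed above and 3 below their own windows, against 10.6% above and 11.5% below over all genes.

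With the dyes read apart, the liver signal of the first Csf1r probe (log2 above the array's autosomal median) was higher than the line signal on each array. Line DNA gave 0.60, 0.42 and 0.46 on arrays 1, 2 and 3, against 1.09, 0.87 and 1.00 for liver DNA. For the second probe, line DNA gave 0.87, 1.09 and 0.96, against 1.62, 1.41 and 1.47 for liver DNA. Both channels were above the array median at both probes. The liver excess on all 3 arrays restates the ratios below 0, so it is not a separate result. Array 1 minus the mean of arrays 2 and 3 was 0.17 in Cy5 and 0.15 in Cy3 at the first probe, and -0.15 in Cy5 and 0.19 in Cy3 at the second. The greater depth of line 1 at the second probe thus came with shifts in opposite directions in the 2 dyes.

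Csf1r lost its call without line 2 (-0.61, limma adjusted p = 0.0843), without line 3 (-0.57, adjusted p = 0.0565) and when lines 2 and 3 counted as 1 averaged sample (-0.59, adjusted p = 0.0655). In each of these 3 fits 0 genes passed, and 5696, 6135 and 6191 genes had an unadjusted p under 0.05.

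**Figure D2:**
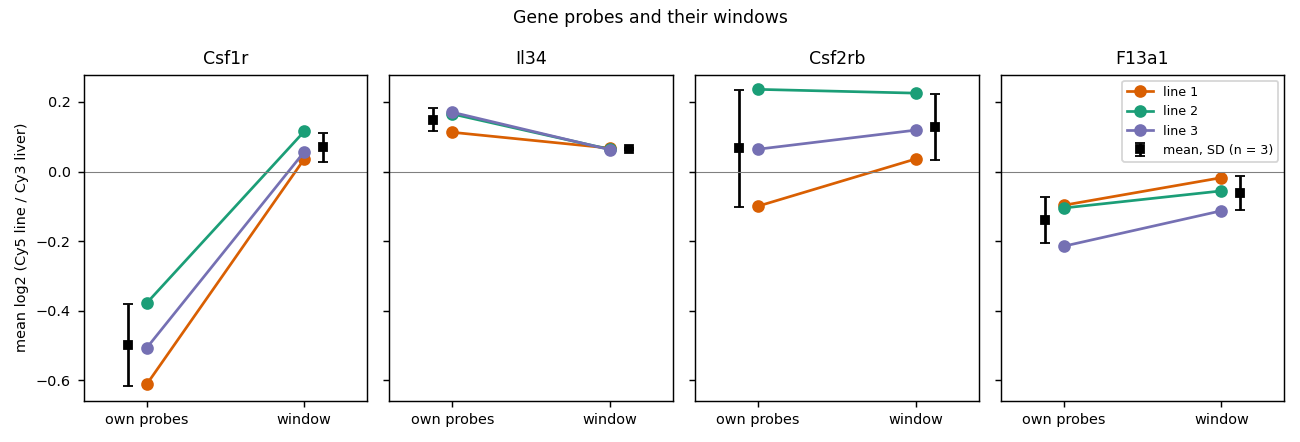
Mean log2 ratio of own probes and of window probes in each line, joined by a line per array, with the mean ± SD over the 3 lines. The Csf1r own probes lie below their window in all 3 lines, and the other 3 genes lie within 0.15 of theirs.

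Il34, the ligand, lay above 0 in all 3 lines and close to its window. Its 7 probes span 113276946 to 113327628 on chromosome 8 (mm9). Their mean ratio (log2) was 0.11, 0.17 and 0.17 in lines 1, 2 and 3, against window means of 0.067, 0.064 and 0.063. The own mean was above the window mean in every line, by 0.046, 0.10 and 0.11. That difference averaged 0.085 ± 0.034 (SD, n = 3) and did not pass (limma adjusted p = 0.203). Of the 564 genes with 7 probes, 22% lay as far above their window. The mean of the own probes against 0, 0.15 ± 0.032, did not pass (limma adjusted p = 0.0719), a test that 22.6% of all genes passed. It passed without line 1 (0.17, adjusted p = 0.0275), when genes with fewer than 3 probes were left out (adjusted p = 0.0313) and under normexp background correction (0.21, adjusted p = 0.0455).

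The Il34 probes differed from each other by more than Il34 differed from its window, and about as much as the window's probes did. The SD over its own probes was 0.32, 0.25 and 0.28 (log2) in lines 1, 2 and 3, against 0.33, 0.21 and 0.25 over the window probes. In all 3 lines 4 of the 7 probes were above 0 and 2 were below, while 1 changed sign. Among all probes, 32.9% were above 0 and 34.2% below 0 in all 3 lines. Of the 7, 3 passed above 0 and 1 below, against 16.1% above and 17.4% below over all probes. The highest, at 113292824, had ratios (log2) of 0.53, 0.36 and 0.50 in lines 1, 2 and 3, and the probe at 113320565 had 0.49, 0.40 and 0.35. The lowest, at 113276946, had -0.24, -0.22 and -0.26, and its neighbour at 113283849 had -0.27, -0.10 and -0.14. The 2 low probes lie at the low-coordinate end of the gene, and the order of high and low probes was much alike in the 3 lines. The probe at 113299201 had 0.10 in line 1, lower than the 0.37 and 0.39 of lines 2 and 3.

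The highest Il34 probe was also the 1 own probe of the 4 genes that was lower by at least 0.5 in both dyes on array 1 than on the mean of arrays 2 and 3. Its line signal was -0.85 on array 1, against -0.17 and -0.048 on arrays 2 and 3, and its liver signal was -1.37, against -0.52 and -0.53. Array 1 differed from the mean of the other 2 by -0.74 in Cy5 and -0.84 in Cy3, and the ratio differed by 0.092. Both dyes were lower together, so the ratio of this probe hardly moved. Such a joint drop was found at 0.513% of all probes.

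**Figure D3:**
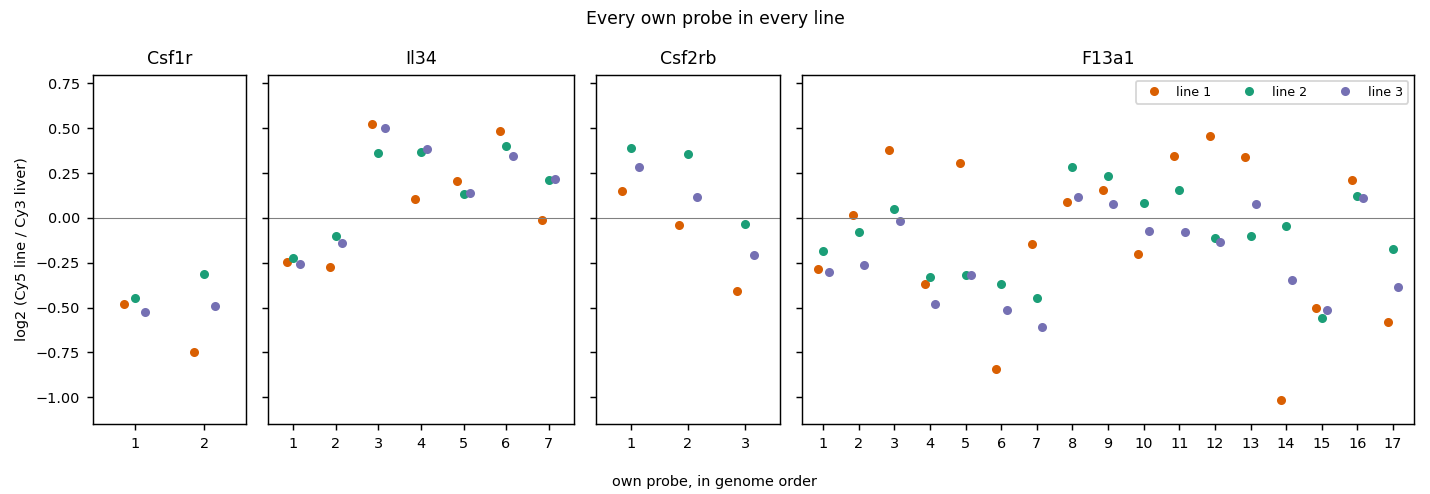
Log2 ratio of every own probe in genome order, 1 panel per gene and 1 colour per line. The Il34, Csf2rb and F13a1 panels each hold probes above 0 in all lines and probes below 0 in all lines, within a gene whose mean is near that of its window. In F13a1, 7 of the 17 probes change sign between lines.

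Around Il34, the nearest probe after it was above 0 in every line. That probe, 5.72 kb on and named AK054468, had 0.60, 0.31 and 0.47 (log2) in lines 1, 2 and 3. The other AK054468 probes lie 284 and 290 kb from the centre of the Il34 probes, beyond other named genes. They had -0.37, -0.022 and 0.052, and 0.58, 0.55 and 0.84. The 3 probes of AK054468 averaged 0.27, 0.28 and 0.45, which was 0.27 above its window (limma adjusted p = 0.0384). This mean thus does not describe the place next to Il34 alone. Mtss1l, 11.7 kb before Il34, averaged -0.054, 0.042 and 0.050, and its difference did not pass (adjusted p = 0.360). By distance over the 3 lines, the genes of the window most like Il34 were Vac14 (0.11), Sf3b3 (0.15) and Pdpr (0.20). The window itself had a mean of 0.065 ± 0.0024 (SD, n = 3) and passed against 0 (limma adjusted p = 0.0173). The windows of the 4 genes all passed against 0, and 43.9% of all windows did (33.9% above, 10% below). That of Csf1r averaged 0.069 ± 0.041 (adjusted p = 0.0120) and was no longer called without line 2 (0.046, adjusted p = 0.194) or without line 3 (adjusted p = 0.0550). For Il34, the window's call was lost without line 2 (adjusted p = 0.0885), without line 3 (0.0918), with medians in place of means (0.0704) and with dim probes left out (0.0502).

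Csf2rb, the shared receptor chain, followed its window from line to line. Its 3 probes span 78158137 to 78174304 on chromosome 15 (mm9). Their mean ratio (log2) was -0.099, 0.24 and 0.064 in lines 1, 2 and 3, against window means of 0.036, 0.23 and 0.12. Line 2 was the highest and line 1 the lowest for both the gene and its window. The own probes lay 0.14 and 0.055 below the window in lines 1 and 3, and 0.011 above it in line 2. The difference averaged -0.060 ± 0.073 (SD, n = 3) and did not pass (limma adjusted p = 0.403). With medians of probes it had the other sign, at 0.010. Against 0, the own probes averaged 0.067 ± 0.17 and did not pass (adjusted p = 0.531), with -0.020 after loess, -0.069 in the authors' value table and -0.018 without line 2.

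The Csf2rb window was among the higher ones in line 2. Its mean of 0.13 ± 0.095 (SD, n = 3) passed against 0 (limma adjusted p = 4.86e-05). As high a window was found at 42.2%, 0.171% and 5.87% of genes in lines 1, 2 and 3. The mean of all probes on chromosome 15 was 0.0021, 0.065 and 0.065 in lines 1, 2 and 3, so the window stood above its chromosome in each line. The call was lost without line 2 (0.078, adjusted p = 0.0830) and in the authors' value table (0.056, adjusted p = 0.0799).

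Between the 3 Csf2rb probes the order was the same in each line. The first, at 78158137, had ratios (log2) of 0.15, 0.39 and 0.28 in lines 1, 2 and 3 and passed above 0 (limma adjusted p = 0.0367). The middle one, at 78164302, had -0.040, 0.36 and 0.12. The last, at 78174245, had -0.41, -0.035 and -0.21. Each was highest in line 2 and lowest in line 1. Cy5 on array 1 was lower than the mean of arrays 2 and 3 at all 3 probes, by 0.082, 0.20 and 0.13, while Cy3 was higher by 0.098, 0.066 and 0.15.

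Csf2rb2, a mouse paralog of Csf2rb that encodes an interleukin 3 receptor beta chain, lies 23.2 kb before it. Its 2 probes averaged 0.36, 0.21 and 0.034 (log2) in lines 1, 2 and 3, and its difference from its window was 0.076 (limma adjusted p = 0.548). Unlike Csf2rb, it was highest in line 1. Its probe at 78123390 had 0.84, 0.44 and 0.34, and its probe at 78134846 had -0.13, -0.021 and -0.27. An unnamed probe 12.2 kb before Csf2rb had 0.94, 0.55 and 0.60. On the other side, 1700061J05Rik, 36.4 kb away, averaged -0.14, 0.24 and 0.20, and its difference did not pass (adjusted p = 0.683). The genes of the window most like Csf2rb over the 3 lines were Tst (distance 0.050), Pvalb (0.093) and Cacng2 (0.13).

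F13a1, the factor XIII subunit, lay slightly below 0 with its window. Its 17 probes span 36969242 to 37135813 on chromosome 13 (mm9). Their mean ratio (log2) was -0.097, -0.10 and -0.21 in lines 1, 2 and 3, against window means of -0.018, -0.056 and -0.11. Line 3 was the lowest for both, and the own mean was below the window mean in every line. The difference was -0.079, -0.049 and -0.10, averaging -0.077 ± 0.026 (SD, n = 3), and did not pass (limma adjusted p = 0.234). Of the 104 genes with 17 probes, 21.2% lay as far below their window. Against 0, the own mean of -0.14 ± 0.066 did not pass (limma adjusted p = 0.103). It passed without line 1 (-0.16, adjusted p = 0.0408) and when genes with fewer than 3 probes were left out (adjusted p = 0.0494). Without line 1 the fit again rests on 2 lines of 1 animal number, and 7729 of 21107 genes passed in it.

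Low probes of F13a1 lay among probes above 0. In all 3 lines 7 of the 17 probes were below 0 and 3 above, while 7 changed sign. Over all probes, 34.2% were below 0 and 32.9% above 0 in all 3 lines. Of the 17, 6 passed below 0 and 0 above, against 17.4% below and 16.1% above over all probes. The lowest, at 37011529, had ratios (log2) of -0.84, -0.37 and -0.51 in lines 1, 2 and 3. The probe at 37111297 had -0.50, -0.56 and -0.51. The highest, at 37035504, had 0.090, 0.28 and 0.11 and did not pass (limma adjusted p = 0.138). The low probes did not form 1 run along the gene: the probe at 37123050, between 2 low ones, had 0.21, 0.12 and 0.11. The window passed below 0 (-0.062 ± 0.048, SD, n = 3; adjusted p = 0.0253), and it lost the call without line 2 (adjusted p = 0.138), without line 3 (0.364), with lines 2 and 3 averaged (0.111), under normexp (-0.028, 0.378) and after loess (0.0875).

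At F13a1, array 1 differed from the other 2 more in the liver channel than in the line channel. At the probe at 37098744 the ratio was -1.01 in line 1, against -0.046 and -0.35 in lines 2 and 3. Its line signal was -2.40, -2.38 and -2.68 on arrays 1, 2 and 3, close to each other, while its liver signal was -1.38 on array 1 and -2.33 and -2.31 on arrays 2 and 3. Array 1 thus differed from the other 2 by 0.94 in Cy3 and by 0.13 in Cy5. The probe at 37004922 went the other way, with a liver signal of -2.61 on array 1 against -2.08 and -1.78. It and the probe at 37086164 were not well above background for liver DNA on array 1. Over the 17 probes, the change of array 1 against the other 2 had an SD of 0.41 in Cy3 and 0.16 in Cy5, against 0.24 and 0.16 over the window. In the windows of Csf1r, Il34 and Csf2rb it was 0.32, 0.28 and 0.37 in Cy3, and 0.19, 0.19 and 0.21 in Cy5.

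**Figure D4:**
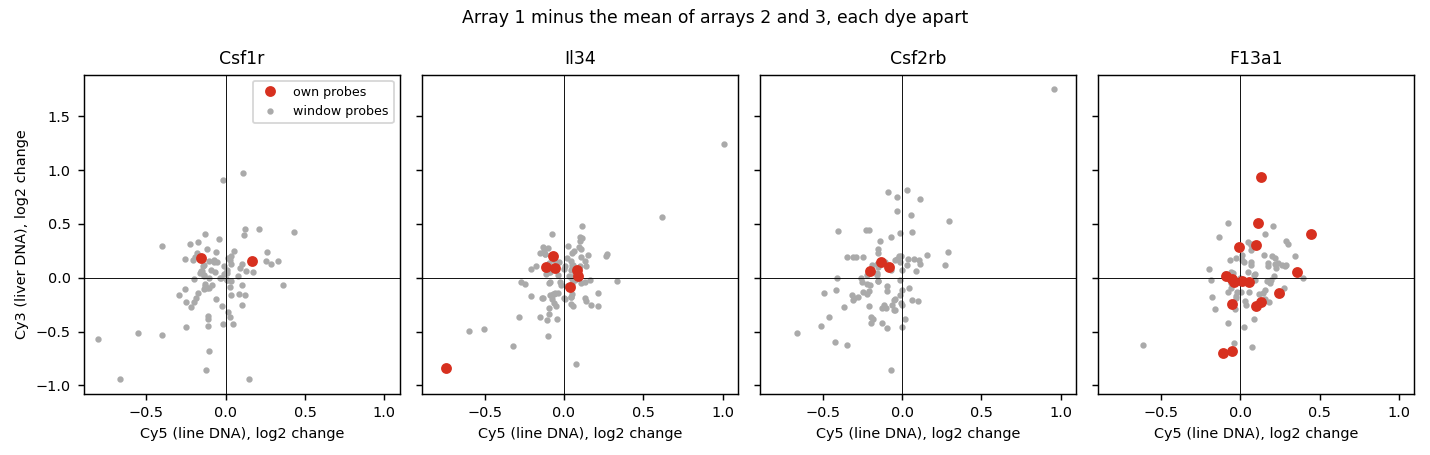
Signal on array 1 minus the mean of arrays 2 and 3 (log2), Cy5 (line DNA) on the horizontal axis and Cy3 (liver DNA) on the vertical axis, for own probes (red) and window probes (grey), 1 panel per gene. The points of F13a1 and of every window spread more along the Cy3 axis than along the Cy5 axis, and 1 Il34 probe lies low in both.

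Across the 29 own probes, 13 passed against 0, 4 above and 9 below (44.8%, against 33.5% of all probes). The liver signal of array 1 was at least 0.5 away from the mean of arrays 2 and 3 at 5 of them, against 7.26% of all probes, and the line signal at 1, against 1.67%. Between arrays 2 and 3, which share a liver label, the SD of the difference over the 29 probes was 0.15 in Cy5 and 0.11 in Cy3, while array 1 against their mean gave 0.21 in Cy5 and 0.35 in Cy3. The part of these differences in the results was not tested.

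The spread of genes around their windows varied with the number of probes. Among genes with 2 probes, 25% passed and the middle 90% of differences ran from -0.33 to 0.33 (log2). Counting Csf1r itself, 6 of these 3572 genes lay at least as far below their window as Csf1r (0.168%). With 3 probes 17.7% passed, with 7 probes 9.04%, and with 17 probes 4.81%. For 17 probes the middle 90% ran from -0.15 to 0.13, which holds the -0.077 of F13a1. Csf1r was thus outside the middle 90% for its number of probes, and the other 3 genes were inside theirs.

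**Figure D5:**
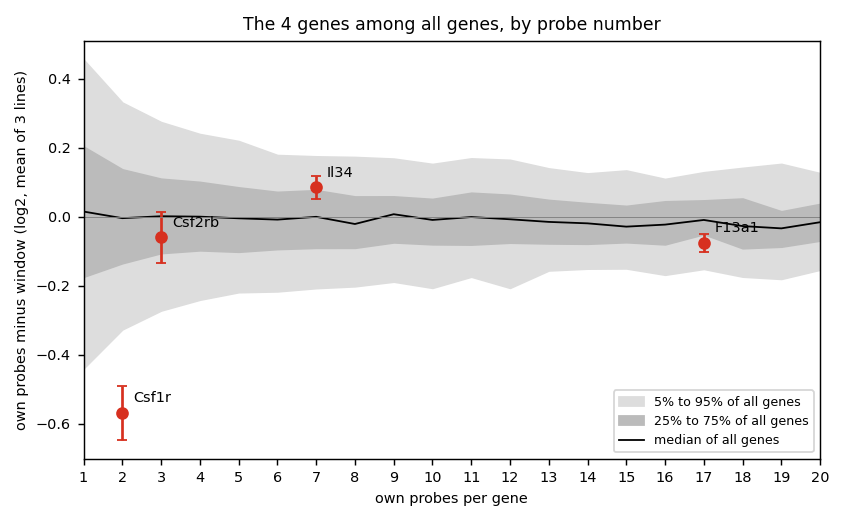
Difference between own probes and window (log2, mean of 3 lines) against the number of own probes. Bands hold the middle 90% and the middle 50% of all genes with that number of probes, and points with SD bars (n = 3) are the 4 genes. Csf1r lies below the band at 2 probes, and the other 3 genes lie inside theirs.

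The partner genes of the 4 were read the same way, own probes minus window. Of 5 genes for CSF1R, its ligands and the binding partners of IL34, 0 passed above and 2 below, with a median of -0.17, against 10.6% above, 11.5% below and a median of -0.0031 over all genes. The 2 were Csf1r itself and Csf1, the other ligand, whose single probe lay 0.69, 0.41 and 0.40 (log2) below its window in lines 1, 2 and 3 (limma adjusted p = 0.0209). Ptprz1, a receptor phosphatase that binds IL34, differed by 0.041 over 17 probes (adjusted p = 0.544). Sdc1, a proteoglycan that binds it, differed by -0.17 over 2 probes (adjusted p = 0.156).

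Of 10 measured genes of the common beta chain family, 1 passed above, Il3ra with 1 probe (0.28, limma adjusted p = 0.0247), and 1 below, Il3 with 1 probe (-0.32, adjusted p = 0.0270), with a median of -0.0063, close to the 22.1% of all genes that passed. Of 12 genes for factor XIII, the other transglutaminases and fibrinogen, 1 passed above, Fgb (0.19, adjusted p = 0.0435), and 1 below, F13b, the carrier subunit of factor XIII (-0.26, adjusted p = 0.0295), with a median of -0.018, again against 22.1% of all genes. Of 11 measured macrophage and microglia genes, Cd163 passed above (0.29, adjusted p = 0.0414) and 2 passed below, Tyrobp (-0.31, adjusted p = 0.0323) and Arg1 (-0.25, adjusted p = 0.0493), with a median of -0.0059, against 10.6% above and 11.5% below over all genes. Over the 4 lists 9 of 38 genes passed (23.7%), near the 22.1% of all genes. Of these 9, Cd163 had 3 probes, Csf1r 2 and the other 7 had 1 each. Genes with 1 probe had the widest middle 90% of all probe numbers drawn, from -0.44 to 0.46.

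AK135154 has probes on both sides of F13a1, and the nearest named genes whose probes do not enclose it were Nrn1 and Ly86. Nrn1, with 1 probe 144 kb before it, averaged 0.30 (log2) and its difference from its window did not pass (limma adjusted p = 0.0664). Ly86, 310 kb after it, had 6 probes averaging 0.032 (adjusted p = 0.359). AK054370 (distance over the 3 lines 0.021), Fars2 (0.042) and AK135154 (0.17) were nearest in value. Of the 5 other named genes in this window 0 passed, against 22.1% of all genes. That share is not a like measure, because Fars2 had 44 probes, AK135154 33 and AK054370 13. Of all genes with 17 probes 4.81% passed, and of those with 2 probes 25%. For Csf1r, the genes most alike were AK032118 (distance 0.49), Slc26a2 (0.52) and ENSMUST00000137894 (0.55), each with 1 probe, farther than any named for the other 3 genes.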

How the data were processed

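Genomic DNA of 3 neurosphere lines (Cy5) and of liver (Cy3) was measured on 3 two-colour arrays with 180880 spots each, of which 6575 were controls. Per the file headers, the authors' intensity values were read with Agilent Feature Extraction 10.7.3.1, are background-subtracted and dye-normalised, and are placed on mm9. The deposited files also hold a log10 ratio with its error, and the authors' value table holds log10 values (column medians 0.000435, -0.00146 and -0.00271 for lines 1, 2 and 3, slopes 1.00, 1.01 and 0.998 against the scanner ratios), whose direction and scale these settle and whose centring no source used here gives. Their Pearson correlation with the scanner ratios was 0.867, 0.844 and 0.884 for lines 1, 2 and 3, so they differ by more than centring.

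From the deposited intensities, log2 of Cy5 over Cy3 was computed. Spots with an outlier mark (165, 179 and 160) were dropped, spots of a probe averaged and each array centred on its autosomal median. Of 21138 gene names, 31 on several chromosomes or spanning over 5 Mb were left out, and 21097 genes had a window of at least 10 probes. Means of own probes, of windows without own probes and their difference were tested against 0 with limma 3.58.1 (lmFit, eBayes, intercept only, 2-sided, R 4.3.3), with Benjamini-Hochberg adjustment over all genes (own probes 21107, differences and windows 21097) or probes and a threshold of 0.05. Other steps used Python 3.11.15, numpy 2.4.6 and pandas 2.3.3. Tested on simulated data with 21097 genes, the difference fit called 100 of 100 genes shifted by 0.5, 95 of 100 shifted by 0.25 and 13 unshifted genes. That result shows that the fit runs as intended on made-up values. It gives neither the power of the test on the arrays nor the share of wrong calls among the 4667 genes passing by difference. P-values and SDs cover only the spread among the 3 lines, which may be partly technical. They count lines 2 and 3 as independent although both carry the same animal number, so the p-values may be too small. With these 2 lines averaged as 1 sample, 0 genes passed by own probes or by difference. Array number limits the precision.

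Genes named are the 4 genes, list members that passed (up to 12), the nearest named gene on each side and up to 3 genes of the window nearest in Euclidean distance of the 3 line means. The members and lists were chosen with earlier results of these data known. Csf2ra, Aif1, Cd68, P2ry12, Adm and Cd14 matched no probe name, and Spi1 and Adgre1 were read under Sfpi1 and Emr1. The result of 1 further gene of the macrophage and microglia list is not reported here, and the list's count and median leave it out. Alternatives were normexp, loess, the value table, removal of dim probes, a GC correction, other windows, medians, at least 3 probes, other centring, leaving out each line, and lines 2 and 3 averaged.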

Additional observations from a re-analysis of the deposited data

How the results depend on the processing

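The Csf1r difference from its window stayed below 0 under all 13 alternatives that could be fitted, from -0.61 to -0.40 (limma adjusted p 0.00074 to 0.0843). It missed the threshold without line 2 (adjusted p = 0.0843), without line 3 (0.0565) and with lines 2 and 3 averaged (-0.59). Leaving out 1 line gave differences of -0.61 to -0.53. The lowest adjusted p, 0.00074, came without line 1. That fit holds only lines 2 and 3, which share an animal number, and 7948 of 21097 genes passed in it. The own value of Csf1r against 0 was -0.29 under normexp, against -0.50 as reported. The Csf2rb difference turned to 0.010 with medians, and its own value turned to -0.020 after loess and -0.069 in the value table, with 0.15 to -0.018 over the lines left out. Genes passing by own probes (4768) were 2862 in the value table, 2276 with at least 3 probes, 0 with lines averaged, and 0 to 7729 without 1 line. Genes passing by difference (4667) were 2631 under normexp, 2512 after loess, 2412 in the value table, 2248 with at least 3 probes, 0 with lines averaged, and 0 to 7948 without 1 line. Where 0 passed by own probes, an unadjusted p under 0.05 was met by 5670 (without line 2), 6070 (without line 3) and 6048 (lines averaged) genes. Windows passing (9258, of which 7142 above) were 3628 to 8487 without 1 line, and 8249 by the authors' values, of which 4570 above. Probes passing (56987) were 35287 in the value table, 37201 with lines averaged and 30065 to 79850 without 1 line. The Csf1r window lost its call in the value table (0.040, adjusted p = 0.0675), without dim probes (0.0623), with medians (0.0525), at 1 Mb (0.034, 0.160), without line 2 (0.194), without line 3 (0.0550) and with lines averaged (0.0527). Of 154 values of the 4 genes under alternatives, 121 kept direction and side of the threshold. The causes were not tested. No paired analysis was possible because the 3 lines form 1 group.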
